A study of Mus musculus with 12 samples.

Results

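Interleukin 11 (Il11) and 9 genes of the cytokine family that signals through the shared receptor gp130 were followed in cultured mouse liver cells given riociguat. The members are the cytokines Il11, Il6, Lif and Clcf1, the receptors Il11ra1, Il6ra, Lifr, Osmr and Il6st, which encodes gp130 itself, and the feedback inhibitor Socs3. They were chosen by symbol with earlier results of these data known, as were the gene lists used below. Il11 was picked because its counts were higher with riociguat. The 10 members are 10 of 53452 genes in the deposited table, and all 10 were among the 16036 genes that passed the filter on low counts. Because Il11 was picked for that difference, its levels against the solvent control are given as a description with no test, and it is left out of the counts of members in those comparisons.

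The cells are labelled as HSCs from wild-type (WT) mouse liver and were freshly isolated. The labels do not spell the abbreviation out, and hepatic stellate cells, the liver pericytes that store vitamin A, are assumed here. Riociguat stimulates soluble guanylate cyclase, the enzyme that makes cyclic GMP in response to nitric oxide. All cultures had a change of medium 12 h after isolation. DMSO was present for 12 h in the control group, and riociguat for 6, 12 or 24 h in the others. The compound or DMSO went in 12 h after the medium change in both 12 h groups and 18 h after it in the 6 h group, while the 24 h group received riociguat at the change itself. By these times the whole series was collected at the same age of culture. Exposure time and the stage of culture at addition therefore cannot be told apart. The 6 h and 24 h groups have no solvent control of their own exposure time, and their comparison with DMSO 12 h carries that difference. No label states the dose. Each group holds 3 libraries, 12 in all, and nothing says that they came from separate animals or isolations. A p-value here therefore weighs a difference only against the scatter among these libraries, and that scatter may be technical.

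Library totals ran from 12953096 to 27358893 counts. CPM is the count scaled to a common library total. Of 19 stellate markers, Reln, Dcn and Des stood at 1366.5, 666.7 and 190.4 CPM in DMSO, while Lrat, Colec11, Ngfr and Gfap were low, at 4.81, 4.95, 7.10 and 0.773 CPM. Hepatocyte, endothelial, cholangiocyte and macrophage markers were present too, with none at 0 in any group. In bulk RNA, fewer cells of a type and less RNA per cell cannot be told apart. DMSO replicate 1 stood farther from its fellow replicates than any other library did, with a chi-square per degree of freedom of 12.3 and 16.0 against them over genes, compared with 4.08 between the other pair. Results that rest on DMSO are therefore also given without it where they change.

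Cytokines of this family bind a receptor of their own (Il11ra1 for interleukin 11, Il6ra for interleukin 6) or a signalling partner (Lifr, Osmr), and all of them recruit gp130. Gp130 activates JAK kinases and the transcription factor STAT3, and also the RAS-ERK pathway. STAT3 switches on Socs3, whose product binds gp130 and shuts the signal down. In the liver, interleukin 6 drives the acute phase response of hepatocytes, and interleukin 11 has been studied as a signal of fibroblasts and stellate cells in fibrosis.

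Il11 and Il6 were the members whose levels were higher with riociguat at every time. The stretches upstream of their start sites are shown because the pair moved in one direction in all 3 comparisons with DMSO. The sequences are 250 bases of RefSeq promoter windows on GRCm38.p6, on the gene's strand, and the windows matched 9 of the 10 members by symbol. The Il11 stretch lies at chr7:4778142-4778391 on the minus strand, upstream of an internal start site of the gene, and the Il6 stretch at chr5:30012864-30013113 on the plus strand. Capitals mark the AP-1 letters TGANTCA in both, and in Il6 also the CRE core letters TGACG read from the other strand.
Il11: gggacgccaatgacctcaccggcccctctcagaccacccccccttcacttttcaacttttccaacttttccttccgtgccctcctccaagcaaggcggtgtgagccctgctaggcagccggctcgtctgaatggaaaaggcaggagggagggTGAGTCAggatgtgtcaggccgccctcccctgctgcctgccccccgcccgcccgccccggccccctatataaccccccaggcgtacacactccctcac
Il6: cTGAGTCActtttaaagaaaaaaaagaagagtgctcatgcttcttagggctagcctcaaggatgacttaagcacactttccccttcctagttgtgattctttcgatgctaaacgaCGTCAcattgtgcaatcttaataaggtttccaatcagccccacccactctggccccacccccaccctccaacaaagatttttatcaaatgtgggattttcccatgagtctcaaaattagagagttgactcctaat

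The AP-1 letters, bound by FOS and JUN proteins, start 98 bases before the start site in Il11 and 249 bases before it in Il6. They occur in 7.81% of the 32851 windows of 300 bases in the table. The CRE core, part of the site bound by CREB proteins, starts 135 bases before the Il6 start site, and 20.8% of all windows hold it. These letters were searched on both strands, together with the full CRE (TGACGTCA), STAT (TTCNNNGAA), TEAD (GGAATG) and AHR core (GCGTG) letters. The other Il11 window, at the start of the longest gene model, held no match to any of the 6 motifs. Among the other members, the Lif and Osmr windows held the AP-1 letters, the Il6ra window held the CRE core, and the Socs3 window held the STAT letters 154 bases before its start site, a motif found in 8.3% of all windows. The TEAD letters occurred in 1 of the Il11ra1 windows, and the AHR core letters in windows of Lif, Il6ra, Lifr and Osmr. Of all windows, 14.7% held the TEAD letters and 32.4% the AHR core letters. A match is a description of the letters only.

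Il11 (ENSMUSG00000004371, chromosome 7, 4772373 to 4782859, minus strand, GRCm38) encodes interleukin 11, a secreted cytokine. Its level in DMSO was 6.03, 7.79 and 7.75 CPM in replicates 1 to 3. At 6 h of riociguat it was 35.0, 30.4 and 34.3 CPM, at 12 h 38.4, 35.7 and 37.6 CPM, and at 24 h 39.4, 35.5 and 30.9 CPM. Every riociguat library lay above every DMSO library, with 445 to 924 counts against 126 to 185. The means were 7.19 ± 1.01 CPM in DMSO and 33.2 ± 2.48, 37.2 ± 1.41 and 35.3 ± 4.29 CPM at 6, 12 and 24 h (SD, n = 3). These are folds of 4.60, 5.16 and 4.89 over DMSO, or log2 differences of 2.20, 2.37 and 2.29. By log2 difference Il11 had rank 18 at 6 h, 16 at 12 h and 23 at 24 h of the 16036 genes tested. Among those with at least 5 CPM in the higher group it had rank 1 of 11196 at 6 h, rank 2 of 11210 at 12 h and rank 4 of 11252 at 24 h.

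Il11 was picked for its rise with riociguat, and the same riociguat libraries served that choice. It was not picked for a difference between riociguat times, and these are compared here with that limit. The 12 h mean was 0.17 ± 0.10 above the 6 h mean on the log2 scale (SE; edgeR quasi-likelihood adjusted p = 0.389). The 24 h mean differed from it by 0.09 ± 0.10 (adjusted p = 0.616, edgeR), and from the 12 h mean by -0.08 ± 0.10 (adjusted p = 0.808, edgeR). No difference between times passed the test, although the 12 h libraries, at 35.7 CPM and above, all lay narrowly above the 6 h libraries, at up to 35.0 CPM.

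**Figure D1:**
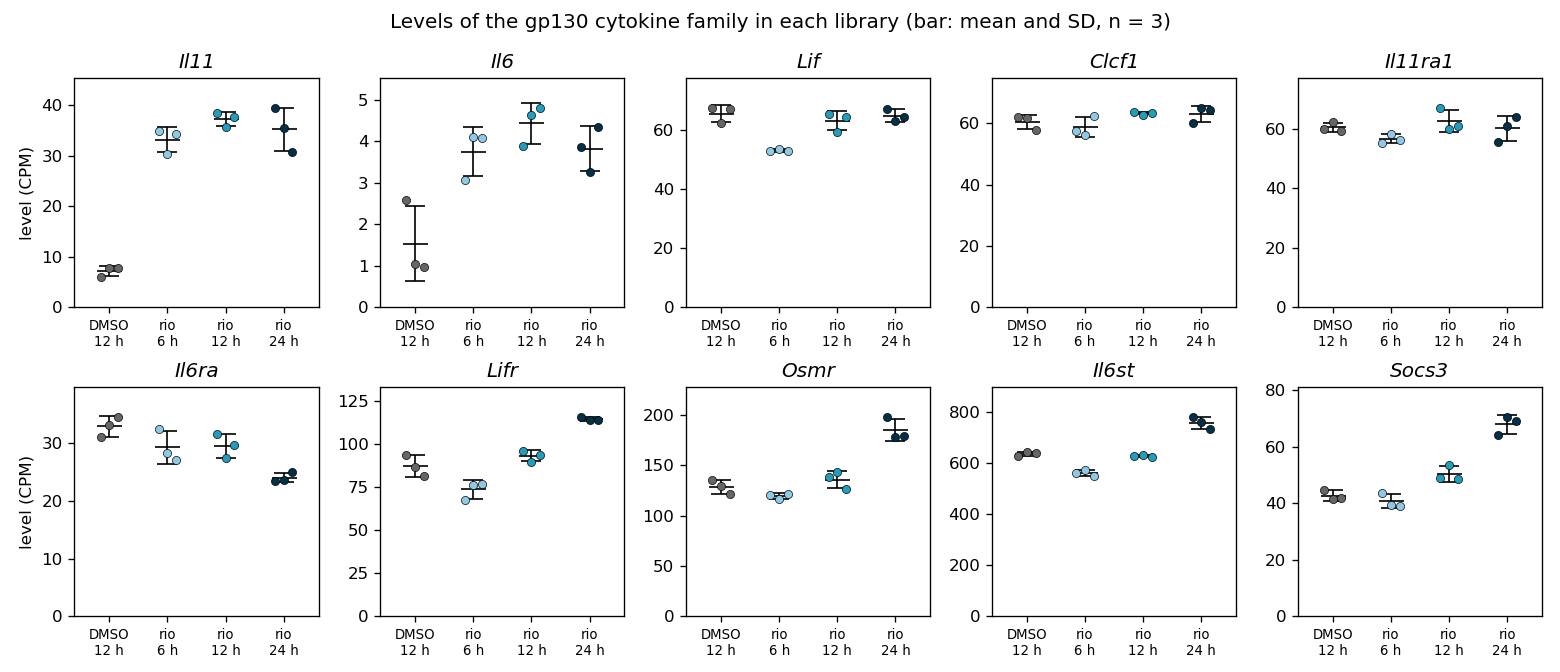
Level of each of the 10 members in CPM (vertical axes from 0, 1 scale per gene) in the 3 libraries of each group, with points for libraries and bars for mean and SD. Il11 lies at 6.03 to 7.79 CPM in DMSO and at 30.4 to 39.4 CPM in the riociguat libraries, while Osmr, Il6st, Lifr and Socs3 are highest at 24 h.

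Il6 (ENSMUSG00000025746, chromosome 5, 30013114 to 30019981, plus strand) encodes interleukin 6. It was scarce, with 20 to 54 counts per DMSO library and 39 to 112 per riociguat library. In DMSO it measured 2.58, 1.05 and 0.968 CPM in replicates 1 to 3. With riociguat it measured 3.07, 4.09 and 4.08 CPM at 6 h, 3.87, 4.62 and 4.79 CPM at 12 h, and 3.85, 3.26 and 4.35 CPM at 24 h. No riociguat library fell within the DMSO range, although DMSO replicate 1 came close to the lowest of them. Il6 rose by 1.31 ± 0.30 at 6 h, 1.53 ± 0.30 at 12 h and 1.32 ± 0.30 at 24 h on the log2 scale (SE; edgeR adjusted p = 0.00989, 0.00345 and 0.00662). The size depended on the DMSO libraries: without DMSO replicate 1 the values were 1.90, 2.12 and 1.91. Without DMSO replicate 2 or 3 the 6 h value dropped to 1.09 or 1.07 and no longer passed (edgeR adjusted p = 0.0583 and 0.0503). Macrophages are a common source of Il6, and their 12 markers summed to 148 ± 5.70 CPM in DMSO and 129 ± 3.28, 152 ± 10.2 and 167 ± 9.26 CPM at 6, 12 and 24 h (SD, n = 3). Of these markers 1 fell at 6 h and 1 rose at 24 h. Their part in the Il6 result was not tested.

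Between riociguat times Il6 had log2 differences of 0.23 ± 0.28, -0.21 ± 0.28 and 0.02 ± 0.28 (SE) for 12 h minus 6 h, 24 h minus 12 h and 24 h minus 6 h. None of these passed (edgeR adjusted p = 0.745, 0.825 and 0.981). The standard error of Il6 was nearly as large as a difference of 0.30, so a change of that size between times was not detectable at this depth.

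Neither Lif nor Clcf1 was called higher than DMSO by edgeR at any time. Lif (ENSMUSG00000034394, chromosome 11, 4257557 to 4272514, plus strand) encodes leukemia inhibitory factor. It measured 67.5, 62.4 and 67.2 CPM in DMSO and 53.2, 53.7 and 52.9 CPM at 6 h, with no overlap. At 12 h it was 65.7, 59.6 and 64.4 CPM and at 24 h 67.3, 63.1 and 64.6 CPM, within or close to the DMSO range. Lif fell by 0.30 ± 0.06 at 6 h on the log2 scale (SE; edgeR adjusted p = 0.00191). The 12 h and 24 h levels differed from DMSO by -0.05 ± 0.06 and -0.01 ± 0.06 (edgeR adjusted p = 0.696 and 0.916), and Lif rose again from 6 h to 24 h by 0.29 ± 0.06 (edgeR adjusted p = 0.00164). The rise from 6 h to 12 h, 0.25 ± 0.06 (edgeR adjusted p = 0.0118), no longer passed without riociguat 12 h replicate 1 or 3 or riociguat 6 h replicate 3 (edgeR adjusted p = 0.0588, 0.0509 and 0.0542).

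Clcf1 (ENSMUSG00000040663, chromosome 19, 4214238 to 4223490, plus strand) encodes cardiotrophin-like cytokine factor 1, which signals through Lifr and gp130. It lay between 56.3 and 64.9 CPM in all 12 libraries. Its 3 differences from DMSO, -0.04, 0.07 and 0.06 on the log2 scale, each had an SE of 0.06 (edgeR adjusted p = 0.748, 0.620 and 0.551). Clcf1 shares 311 exonic bases with AC109138.7, a gene on the same strand that is not used here.

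Of the 5 receptor genes, Lifr, Osmr and Il6st rose at 24 h, and Lifr and Il6st fell at 6 h. The interleukin 11 receptor gene Il11ra1 (ENSMUSG00000073889, chromosome 4, 41699989 to 41769474, plus strand) measured 60.0, 62.1 and 59.2 CPM in DMSO, 55.3, 58.2 and 56.3 CPM at 6 h, 66.9, 59.9 and 60.8 CPM at 12 h and 55.7, 60.8 and 63.9 CPM at 24 h. Only the 6 h libraries all lay below the DMSO libraries. No comparison of Il11ra1 passed, with differences from DMSO of -0.09 ± 0.06, 0.05 ± 0.06 and -0.01 ± 0.06 on the log2 scale (SE; edgeR adjusted p = 0.401, 0.773 and 0.949). Copies of this gene could draw reads from it: Gm13305 holds 57.7% of the 31-base words of its transcripts and had 0 to 13 counts per library, and Il11ra2 holds 19.3% and had 0 to 10. Il11ra1 itself had 703 to 1518 counts.

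Il6ra (ENSMUSG00000027947, chromosome 3, 89864059 to 89913196, minus strand) encodes the ligand-binding receptor of interleukin 6. It measured 31.1, 33.2 and 34.5 CPM in DMSO and 23.5, 23.7 and 25.0 CPM at 24 h, with no overlap. The 6 h libraries, at 32.6, 28.3 and 27.1 CPM, and the 12 h libraries, at 31.6, 27.4 and 29.7 CPM, overlapped the DMSO range. Il6ra fell by 0.45 ± 0.08 at 24 h (SE; edgeR adjusted p = 0.00105). At 6 h and 12 h the differences were -0.18 ± 0.08 and -0.16 ± 0.08 (edgeR adjusted p = 0.202 and 0.347). Hepatocytes express Il6ra, and of 12 hepatocyte markers 10 fell at 24 h, from a sum of 1303 ± 35.1 CPM to 742 ± 122 CPM (SD, n = 3), with 1133 ± 87.4 CPM at 6 h and 1311 ± 156 CPM at 12 h. Their part in the lower Il6ra level was not tested.

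Il6st (ENSMUSG00000021756, chromosome 13, 112464070 to 112510086, plus strand), the gene of gp130, was the most abundant member. It measured 629, 643 and 641 CPM in DMSO, 561, 572 and 551 CPM at 6 h, 628, 633 and 623 CPM at 12 h, and 780, 760 and 735 CPM at 24 h. The 6 h libraries were all below DMSO and the 24 h libraries all above it. Il6st fell by 0.18 ± 0.04 at 6 h (SE; edgeR adjusted p = 0.00327), differed from DMSO by -0.02 ± 0.04 at 12 h (edgeR adjusted p = 0.834), and rose by 0.25 ± 0.04 at 24 h (edgeR adjusted p = 1.51e-04).

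Lifr (ENSMUSG00000054263, chromosome 15, 7090614 to 7197489, plus strand) encodes the signalling partner of gp130 for leukemia inhibitory factor. Its level was 93.8, 86.4 and 81.2 CPM in DMSO and 67.4, 76.4 and 76.8 CPM at 6 h. At 12 h it was 96.0, 89.6 and 93.8 CPM, which overlapped DMSO, and at 24 h the 3 libraries lay at 113.6 to 115.4 CPM, above all others. Lifr rose by 0.39 ± 0.06 at 24 h (SE; edgeR adjusted p = 2.10e-04). Its fall by 0.24 ± 0.06 at 6 h (edgeR adjusted p = 0.0170) was less secure and no longer passed without riociguat 6 h replicate 1, DMSO replicate 1 or DMSO replicate 2 (edgeR adjusted p = 0.0714, 0.0636 and 0.0502).

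Osmr (ENSMUSG00000022146, chromosome 15, 6813577 to 6874969, minus strand), next to Lifr on the chromosome, encodes the partner of gp130 for oncostatin M. It measured 135, 130 and 121 CPM in DMSO, 121, 116 and 122 CPM at 6 h, 138, 143 and 126 CPM at 12 h, and 198, 178 and 179 CPM at 24 h. The 24 h libraries alone stood clear of DMSO. Osmr rose by 0.53 ± 0.06 at 24 h (SE; edgeR adjusted p = 5.41e-06), and differed by -0.11 ± 0.06 at 6 h and 0.08 ± 0.06 at 12 h (edgeR adjusted p = 0.293 and 0.550). Oncostatin M itself (Osm) was nearly absent, with 0 to 9 counts per library, and was not tested.

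Socs3 (ENSMUSG00000053113, chromosome 11, 117966079 to 117970047, minus strand), the feedback inhibitor, measured 44.9, 41.5 and 41.8 CPM in DMSO and 43.6, 39.4 and 39.1 CPM at 6 h. At 12 h it was 48.8, 53.6 and 48.7 CPM and at 24 h 64.1, 70.5 and 69.3 CPM. Both later groups lay above all DMSO libraries. Socs3 rose by 0.67 ± 0.07 at 24 h, a fold of 1.59 (SE; edgeR adjusted p = 1.95e-06). Its rise at 12 h was 0.24 ± 0.07 (edgeR adjusted p = 0.0412) and no longer passed without any 1 of 5 libraries, with adjusted p between 0.0575 and 0.213: riociguat 12 h replicates 1, 2 and 3 and DMSO replicates 2 and 3. At 6 h it differed by -0.08 ± 0.07 (edgeR adjusted p = 0.558).

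**Figure D2:**
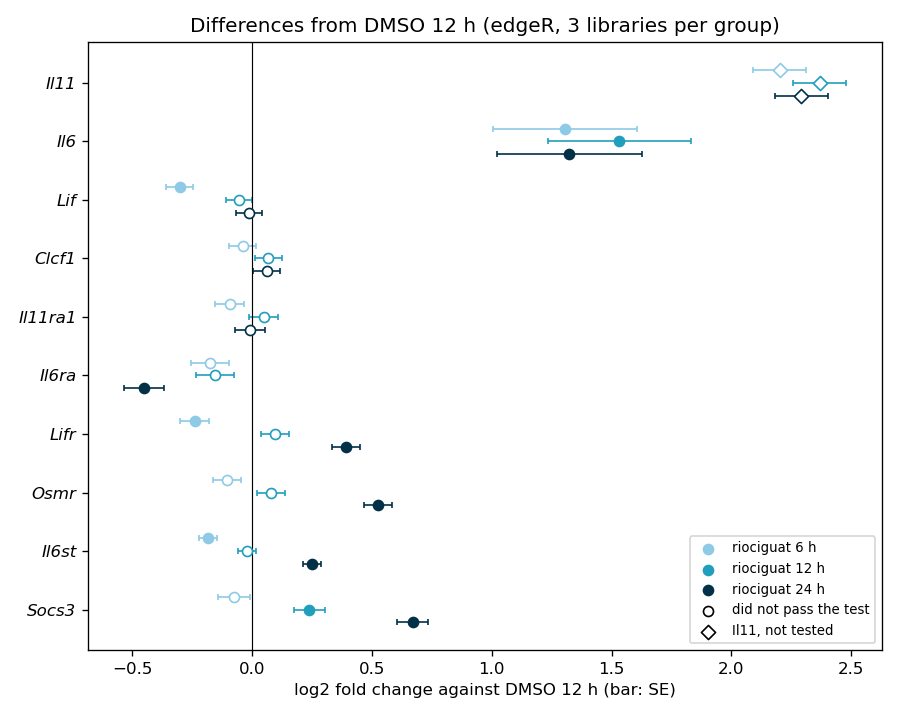
Log2 fold change of each member against DMSO 12 h (horizontal axis) at 6, 12 and 24 h of riociguat, with bars for the SE, filled points for differences that passed the test, open circles for those that did not, and diamonds for Il11, which was not tested. Il11 and Il6 lie to the right at every time, at 2.20 to 2.37 and 1.31 to 1.53, while Lifr and Il6st lie to the left of 0 at 6 h and to the right at 24 h.

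Counted without Il11, 1 of 9 members rose and 3 fell at 6 h, where 4.48% of all tested genes were higher and 5.24% lower. The member that rose was Il6, and those that fell were Lif, Lifr and Il6st. Without DMSO replicate 2 the count of called members at 6 h was 2 in place of 4, and without DMSO replicate 1 it was 3. At 12 h, the comparison with matched exposure, 2 of 9 rose, Il6 and Socs3, against 2.18% of all genes higher. No member fell by edgeR at 12 h, where 3.48% of genes were lower. The count of lower members there was also 0 at an unadjusted p under 0.05 and by DESeq2. Without any 1 of the same 5 libraries named for Socs3 the count at 12 h was 1.

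At 24 h, 5 of 9 members rose, against 5.94% of all genes, and 1 fell, against 7.41%. Those that rose were Il6, Lifr, Osmr, Il6st and Socs3, and the one that fell was Il6ra. The count at 24 h was 6 in every alternative tried, including each left-out library. The median log2 difference of the 9 members was -0.11 at 6 h, 0.07 at 12 h and 0.25 at 24 h, beside medians of 0.00, 0.00 and -0.01 over all genes. The 3 comparisons share the DMSO libraries, so these counts are not independent of each other.

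Marker sums of other cells moved as well. The 11 endothelial markers went from 1142 ± 44.7 CPM in DMSO to 1354 ± 40.6 CPM at 6 h (3 rose and 1 fell), 1071 ± 34.1 CPM at 12 h and 922 ± 32.2 CPM at 24 h (1 rose and 5 fell). The 6 cholangiocyte markers summed to 556 ± 23.2 CPM in DMSO and 993 ± 19.9 CPM at 24 h, where 1 of the 6 rose. Spp1 carried this sum, at 265.7 CPM in DMSO and up to 747 CPM in a riociguat library, while Krt19 lay between 101 and 144 CPM and Krt7 between 70.4 and 98.0 CPM in all 12. The 19 stellate markers went from 4474 ± 34.8 to 4858 ± 99.7 CPM, with 9 higher and 5 lower (all SD, n = 3). The part of these shifts in the receptor and Socs3 results was not tested.

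The comparisons between riociguat times do not use DMSO. From 6 h to 12 h, 4 of 10 members rose, Lif, Lifr, Il6st and Socs3, where 2.57% of genes were higher and 3.52% lower. The log2 differences were 0.25 for Lif, given above, 0.33 ± 0.06 for Lifr, 0.16 ± 0.04 for Il6st and 0.31 ± 0.07 for Socs3 (SE; edgeR adjusted p = 0.00204, 0.0116 and 0.00709 for the last 3). None of the 10 fell by edgeR, and the count of lower members was 0 at an unadjusted p under 0.05 and 0 by DESeq2. Without riociguat 6 h replicate 3 the count of 4 became 1, Lifr, with edgeR adjusted p of 0.0542 for Lif, 0.0596 for Il6st and 0.0504 for Socs3. The Socs3 call was also lost without riociguat 12 h replicate 2 (edgeR adjusted p = 0.0514). Osmr, with an edgeR adjusted p of 0.0711, was called higher as well by DESeq2 (adjusted p = 0.0337), and by edgeR without the filter on low counts, with only the 6 libraries compared or without riociguat 12 h replicate 3 (edgeR adjusted p = 0.0176, 0.0444 and 0.0324).

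From 12 h to 24 h, 4 of 10 members rose, Lifr, Osmr, Il6st and Socs3, where 1.37% of genes were higher and 1.71% lower. Their log2 differences were 0.30 ± 0.06 for Lifr, 0.45 ± 0.06 for Osmr, 0.27 ± 0.04 for Il6st and 0.43 ± 0.06 for Socs3 (SE; edgeR adjusted p = 0.00737, 1.66e-04, 2.73e-04 and 8.09e-04). No member fell by edgeR or by DESeq2, and 1 was lower at an unadjusted p under 0.05, Il6ra. Without the filter on low counts Il6ra fell by 0.30 and passed (edgeR adjusted p = 0.0355). The Lifr call was lost without riociguat 12 h replicate 2 (edgeR adjusted p = 0.0508).

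From 6 h to 24 h, 5 of 10 members rose and 1 fell, where 7.16% of genes were higher and 8.13% lower. Socs3 rose by 0.74 ± 0.07, Lifr by 0.63 ± 0.06, Osmr by 0.63 ± 0.06 and Il6st by 0.43 ± 0.04 on the log2 scale (SE), and no 6 h library of these genes overlapped a 24 h library. The fifth was Lif. Il6ra fell by 0.28 ± 0.08 (edgeR adjusted p = 0.0311), a call kept without riociguat 6 h replicate 3 and lost without any 1 of the other 5 libraries, with adjusted p between 0.0509 and 0.152.

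Levels of different genes can be compared only per length. Counts per kilobase of exon, scaled to a common sum over all genes, were used for this (the TPM scale). In DMSO the order of mean levels on this scale was Il6st (191.5), Clcf1 (52.9), Lif (50.3), Socs3 (49.2), Il11ra1 (45.0), Osmr (35.3), Lifr (26.9), Il6ra (12.7), Il11 (11.5) and Il6 (2.09). The ranges of Clcf1 and Lif overlapped, as did those of Lif and Socs3 and those of Il6ra and Il11. Il11 was thus at rank 9 of 10 in DMSO. With riociguat it was at rank 2 at 6 h and 12 h, at 52.9 and 58.7, and at rank 3 at 24 h, at 56.8, below Il6st and Socs3. At 6 h and at 12 h its range overlapped those of Clcf1 and Socs3. At 24 h it overlapped those of Clcf1, Osmr and Lif.

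This order depends on the length assigned to each gene. With the longest transcript in place of all exons combined, Il11 stayed at rank 9 in DMSO but was at rank 4 at 6 h and rank 5 at 12 h and 24 h, and Osmr moved from rank 6 to rank 2 in DMSO. The ratio of Il11 to Il11ra1 on the TPM scale was 0.256 ± 0.035 in DMSO and 1.26 ± 0.126, 1.28 ± 0.0482 and 1.27 ± 0.242 at 6, 12 and 24 h (SD, n = 3). With the longest transcript these ratios were 0.159, 0.786, 0.797 and 0.791. In DMSO Il11 RNA thus lay below that of its receptor with both lengths. Whether it exceeded that of its receptor with riociguat cannot be said, since the answer changes with the length used. The ratio of Il11 to Il6st was 0.0601 ± 0.00776 in DMSO, 0.316 ± 0.0284 at 6 h and 0.247 ± 0.0229 at 24 h (SD, n = 3).

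**Figure D3:**
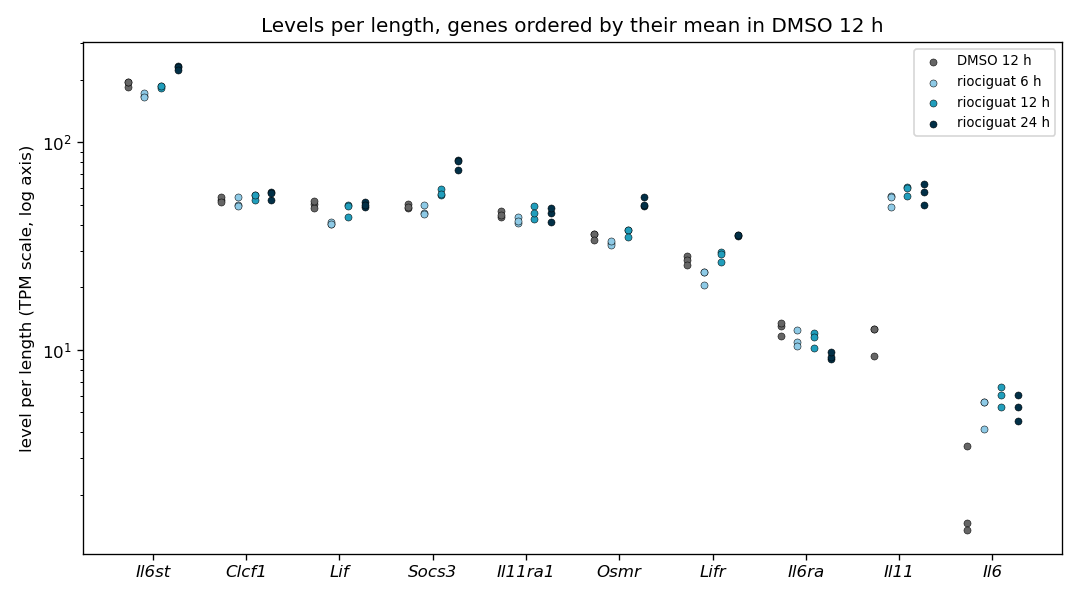
Level per length of each member in every library (TPM scale, log axis), with genes ordered from left to right by their mean in DMSO 12 h and colours for the 4 groups. Il11 sits next to last in DMSO, at 11.5 on average, and level with Clcf1 and Socs3 at 6 h and 12 h of riociguat.

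The rest of the pathway was read from lists of genes by role. Of 12 genes on a list of cytokines of the family and close relatives 7 were tested, and Osm, Ctf2, Il27, Ebi3 and Il31 had too few counts. Il27ra, a receptor of the family outside the members, rose at 24 h by 0.50 (edgeR adjusted p = 0.0380), a call lost without riociguat 24 h replicate 1 or 2 or DMSO replicate 3 (edgeR adjusted p = 0.0760, 0.105 and 0.154), with a replicate block (0.0525) or with only the 6 libraries compared (0.0623). Il27ra was chosen for naming after its values were seen.

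Among 7 kinases and STATs, Stat3, the main transcription factor downstream of gp130, rose at the later times. It measured 207, 205 and 217 CPM in DMSO, 214, 207 and 214 CPM at 6 h, 239, 232 and 235 CPM at 12 h, and 289, 283 and 272 CPM at 24 h. The 6 h libraries overlapped DMSO and the later ones did not. Stat3 rose by 0.17 ± 0.04 at 12 h and 0.43 ± 0.04 at 24 h (SE; edgeR adjusted p = 0.0191 and 1.47e-06). The call at 12 h was lost without riociguat 12 h replicate 1 or 3 or DMSO replicate 2 (edgeR adjusted p = 0.0624, 0.0534 and 0.117). Without DMSO replicate 1, left out after the data were seen, 2 of the 7 rose and 1 fell at 24 h, in place of 1 that rose. DESeq2 called 2 of the 7 higher at 24 h. With all 12 libraries in edgeR the kinases that carry the signal from gp130, Jak1, Jak2 and Tyk2, did not pass in any comparison with DMSO. Jak1 differed by 0.07, 0.03 and 0.08 at 6, 12 and 24 h on the log2 scale (edgeR adjusted p = 0.234, 0.797 and 0.154). Its 6 h and 24 h libraries all lay above DMSO. Jak2 differed by -0.07, -0.10 and 0.10 (edgeR adjusted p = 0.571, 0.472 and 0.312). Tyk2 differed by 0.21, -0.02 and 0.00 (edgeR adjusted p = 0.0563, 0.947 and 0.990). The 6 h libraries of Tyk2, at 43.1 ± 2.11 CPM, did not overlap DMSO, at 37.2 ± 1.53 CPM (SD, n = 3). From 6 h to 24 h Tyk2 fell by 0.21 (edgeR adjusted p = 0.0443).

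Of 27 tested genes on a list of STAT3 targets, which holds Socs3, Il6st, Osmr and Stat3, 7 fell at 6 h and none rose by edgeR. At an unadjusted p under 0.05, 1 was higher, and DESeq2 called 0 higher and 8 lower. At 12 h 5 rose and 2 fell, and at 24 h 10 rose and 3 fell. Over all tested genes, 4.48% were higher and 5.24% lower at 6 h, 2.18% and 3.48% at 12 h, and 5.94% and 7.41% at 24 h, which is the background for this list and for those that follow. With riociguat 12 h replicate 3 left out, 3 rose and 2 fell at 12 h. With DMSO replicate 1 left out, 6 fell at 6 h, 4 rose and 2 fell at 12 h, and 10 rose and 3 fell at 24 h. Both of these left-out libraries, here and in the lists that follow, were chosen after the data were seen. The median log2 difference of the list was -0.08, 0.02 and 0.09, beside 0.00, 0.00 and -0.01 for all genes. Il4ra, the interleukin 4 receptor gene, measured 196, 195 and 199.7 CPM in DMSO and 277, 297 and 283 CPM at 24 h, and rose by 0.23 ± 0.04 at 12 h and 0.54 ± 0.04 at 24 h (SE; edgeR adjusted p = 0.00182 and 1.53e-07). Its 6 h libraries, at 193 to 197 CPM, overlapped DMSO.

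Other genes of the STAT3 target list fell. Ccnd1, which encodes cyclin D1, measured 188, 186 and 196 CPM in DMSO and 99.3, 99.3 and 93.8 CPM at 6 h, a fall by 0.97 ± 0.06 (SE; edgeR adjusted p = 1.69e-08). It fell by 0.50 at 12 h and stood 0.15 lower at 24 h, which did not pass (edgeR adjusted p = 0.112). Myc, the proto-oncogene transcription factor, fell by 0.17, 0.28 and 0.35 at 6, 12 and 24 h. The 6 h call of Myc was lost without any 1 of 5 libraries, all but riociguat 6 h replicate 3 (edgeR adjusted p between 0.0516 and 0.146). Vegfa, which encodes an angiogenic growth factor, rose by 0.28 at 12 h and 0.26 at 24 h. Bcl3 and Cebpd, transcription regulators named after their values were seen, fell at 6 h and rose at 24 h: Cebpd measured 30.7 to 38.5 CPM in DMSO, 19.0 to 27.1 CPM at 6 h and 47.9 to 61.6 CPM at 24 h. Cebpd fell by 0.69 and rose by 0.64 (edgeR adjusted p = 0.00367 and 0.00318), and Bcl3 fell by 0.54 and rose by 0.45 (edgeR adjusted p = 0.00230 and 0.00467).

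Among 10 feedback genes of the ERK pathway, the other arm of gp130 signalling, 4 fell at 6 h, 3 fell and 1 rose at 12 h, and 3 fell and 2 rose at 24 h. The median log2 difference of the list was -0.15, -0.18 and -0.12, beside 0.00, 0.00 and -0.01 for all genes. Without DMSO replicate 1, 3 fell and 1 rose at 6 h, and 2 fell and 1 rose at 24 h. Spry1, which encodes an inhibitor of receptor tyrosine kinase signalling, measured 27.5, 29.9 and 27.5 CPM in DMSO and 18.0, 16.8 and 16.6 CPM at 6 h. It fell by 0.73, 0.67 and 0.50 at 6, 12 and 24 h (edgeR adjusted p = 4.27e-04, 9.01e-04 and 0.00617). Its relative Spry2 fell by 0.41 at 6 h and 0.32 at 12 h, and Dusp6, an ERK phosphatase, fell by 0.25 at 12 h. Spred1, another inhibitor of the pathway, rose by 0.41 at 12 h and 0.59 at 24 h. At 12 h the Spry2 call was lost without riociguat 12 h replicate 2 (edgeR adjusted p = 0.0638), and the Spred1 call without DMSO replicate 2 or 3 (edgeR adjusted p = 0.0695 and 0.0579). Of 15 feedback inhibitors and phosphatases of JAK-STAT signalling, 0 rose and 1 fell at 6 h. At 12 h 1 rose and 1 fell, and at 24 h 1 rose and 2 fell. Without DMSO replicate 1, 2 fell at 6 h, 1 rose and 2 fell at 12 h, and 1 rose and 4 fell at 24 h. Socs3 rose at both later times, and at 12 h Ptpn11, which encodes the phosphatase SHP2, fell by 0.16 (edgeR adjusted p = 0.0488). The Ptpn11 call was lost without any 1 of 5 libraries, all but DMSO replicate 1 (edgeR adjusted p between 0.0892 and 0.324). It was also lost with a replicate block, RLE factors, no filter on low counts or only the 6 libraries compared (edgeR adjusted p = 0.0603, 0.0552, 0.0948 and 0.0902). Without riociguat 12 h replicate 3 neither Socs3 nor Ptpn11 passed at 12 h. Socs2 fell by 0.39 at 6 h (edgeR adjusted p = 0.00102). At 24 h Cish fell by 0.60 and Ptpn11 by 0.15 (edgeR adjusted p = 0.0166 and 0.0368). The 24 h Ptpn11 call was lost without any 1 of 5 libraries, all but DMSO replicate 1 (edgeR adjusted p between 0.0766 and 0.259). It was also lost with RLE factors, no filter on low counts or only the 6 libraries compared. Socs2 and Cish were named after their values were seen.

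A list of 20 genes of the AP-1, CREB, TGF-beta and SMAD families, with Ptgs2, Runx2 and Ets1, covers factors and signals known to act on the Il11 gene. At 6 h 2 rose and 6 fell, at 12 h 1 rose and 3 fell, and at 24 h 3 rose and 9 fell. The median log2 difference of the list was -0.06, -0.08 and -0.09, beside the same medians for all genes. Without DMSO replicate 1, 3 rose and 6 fell at 6 h, 2 rose and 4 fell at 12 h, and 3 rose and 8 fell at 24 h. Crem, a CREB family gene that cyclic AMP signalling induces, measured 8.56, 6.99 and 8.67 CPM in DMSO and 11.4 to 16.0 CPM in the 9 riociguat libraries, all above DMSO. It rose by 0.55 ± 0.12, 0.70 ± 0.12 and 0.88 ± 0.12 at 6, 12 and 24 h (SE; edgeR adjusted p = 0.00629, 8.55e-04 and 5.45e-05). Tgfb2, a TGF-beta ligand gene, fell by 0.53, 0.59 and 0.78, and the transcription factor gene Ets1 fell by 0.33, 0.29 and 0.23. Without DMSO replicate 2 the 6 h call of Tgfb2 was lost (edgeR adjusted p = 0.0584). Fosl2, an AP-1 gene, fell by 0.35 at 12 h and 0.17 at 24 h. Its 24 h call was lost without any 1 of 5 libraries, all but DMSO replicate 1 (edgeR adjusted p between 0.0533 and 0.0859). The genes of this list that passed at 12 h were Crem, Fosl2, Tgfb2 and Ets1.

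**Figure D4:**
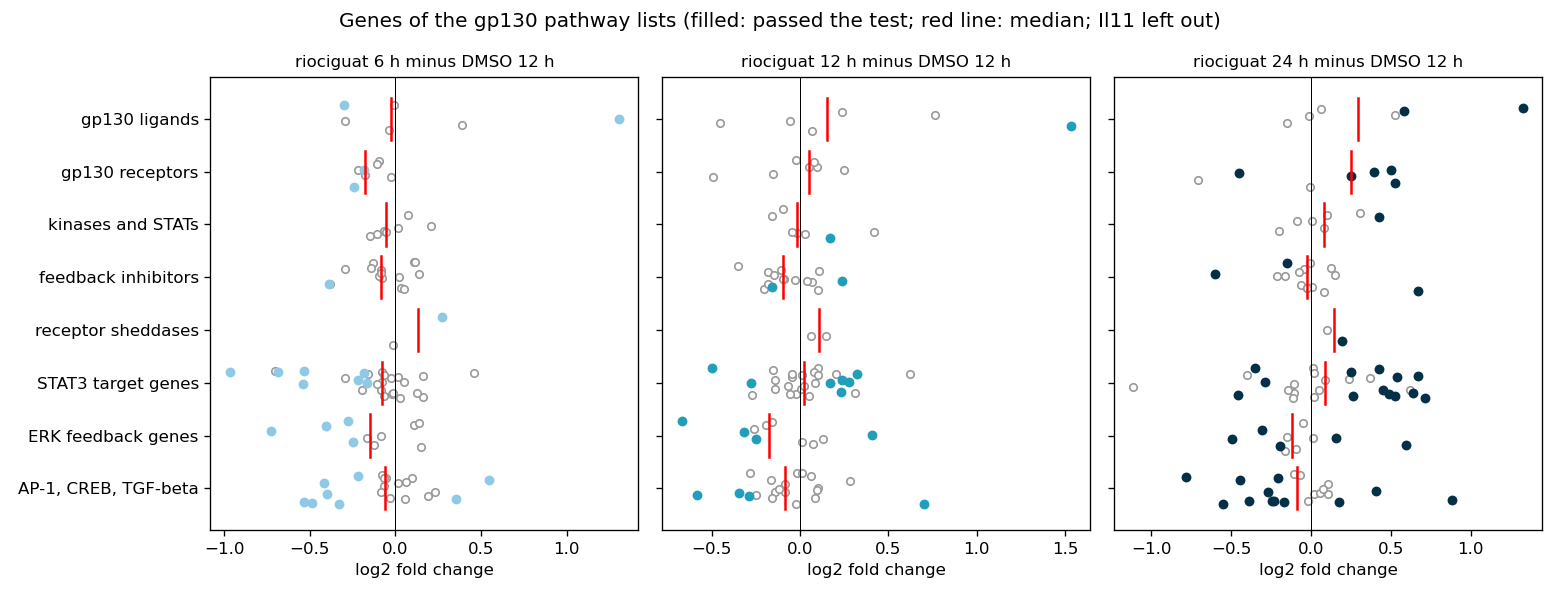
Log2 fold change against DMSO 12 h of the tested genes of each pathway list (1 point per gene, Il11 left out, filled where the test passed, red line for the median) in 3 panels for 6, 12 and 24 h of riociguat. Among STAT3 targets the filled points lie to the left of 0 at 6 h, where 7 fell, and mostly to the right at 24 h, where 10 rose and 3 fell.

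The genes with the course most like that of Il11 were ranked by Pearson correlation of log2 CPM over the 12 libraries, among 10882 genes with at least 5 CPM in their highest group, after leaving out mitochondrial genes, genes named as pseudogenes and genes with no symbol or with clone or predicted-gene names. The points share the same libraries and the same 4 groups, and the values are descriptive. The leading 6 were Ms4a4d (0.973), Kcne4 (0.972), Pde7b (0.968), Alpl (0.965), Arrdc3 (0.953) and Ugdh (0.952). Each had a higher mean than DMSO in all 3 riociguat groups. Pde7b, which encodes a cyclic AMP phosphodiesterase, went from 22.6 ± 1.91 CPM in DMSO to 44.8 ± 3.40, 45.1 ± 1.92 and 49.3 ± 1.79 CPM at 6, 12 and 24 h (SD, n = 3). Kcne4, a potassium channel subunit gene, went from 24.2 ± 2.60 to 43.5 ± 0.569, 44.3 ± 2.16 and 45.1 ± 5.24 CPM. Alpl, which encodes tissue-nonspecific alkaline phosphatase, went from 50.9 ± 0.472 to 93.3 ± 5.90, 89.3 ± 3.70 and 85.7 ± 11.2 CPM.

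In size these fall short of Il11: the log2 differences at 12 h were 0.26 for Ms4a4d, 0.87 for Kcne4, 0.99 for Pde7b, 0.81 for Alpl, 0.47 for Arrdc3 and 0.36 for Ugdh, beside 2.37 for Il11. The most opposed genes were Mrvi1 (-0.978), Cxcl12 (-0.965) and Tnfrsf11b (-0.957). Mrvi1 encodes a substrate of cyclic GMP-dependent protein kinase and went from 53.2 ± 2.82 CPM in DMSO to 26.7 ± 1.46, 26.4 ± 1.59 and 25.0 ± 1.94 CPM (SD, n = 3). Cxcl12, the chemokine gene, went from 1876 ± 98.0 to 1090 ± 24.2, 1002 ± 60.2 and 1031 ± 142 CPM. Among the members the correlation with Il11 was 0.83 for Il6 and lay between -0.59 for Il6ra and 0.41 for Socs3 for the others.

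**Figure D5:**
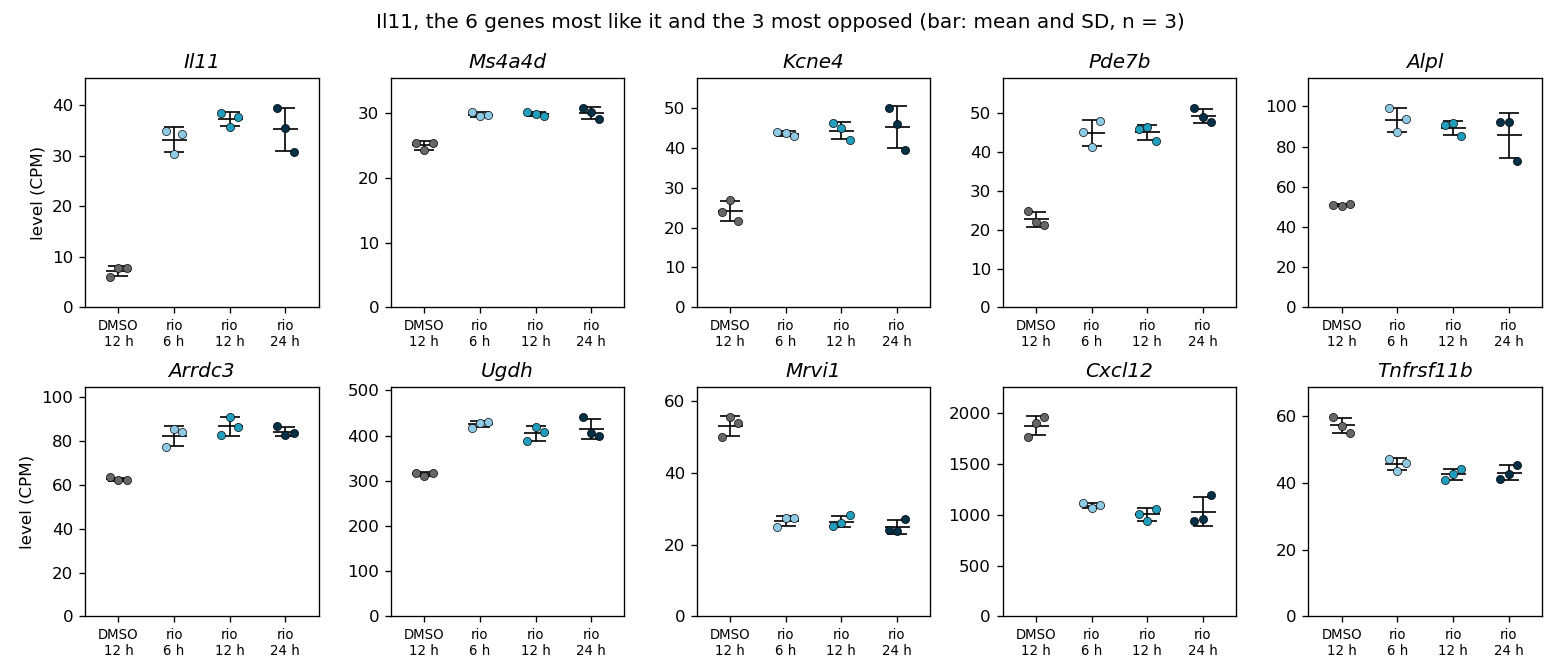
Level in CPM (vertical axes from 0, 1 scale per gene) of Il11, the 6 genes most like it and the 3 most opposed in each library, with bars for mean and SD. Il11, Kcne4, Pde7b and Alpl step up between DMSO and 6 h and stay level to 24 h, and Mrvi1 and Cxcl12 step down.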

How the data were processed

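RNA sequencing was analysed in 12 libraries, 3 in each of 4 groups. The authors deposited expected counts per gene, which held only whole numbers. The submitters' processing notes name FastQC, fastp, Salmon, DESeq2 and the build GRCm38, without roles or versions. Salmon splits reads among similar transcripts, so near-copies are uncertain. Whether strand was used is not given in the sources used. Tests used edgeR 4.0.16 under R 4.3.3, with filterByExpr, TMM and two-sided quasi-likelihood tests. A single model of group covered all libraries. Benjamini-Hochberg adjustment ran over all 16036 genes tested, and an adjusted p under 0.05 is a call. The standard error follows from the moderated F statistic. Lengths and positions come from GENCODE annotation of GRCm38. Symbols matched 53355 of 53452 genes. Named pathway genes are those called at 12 h against DMSO with at least 5 CPM, at most 4 per list, and Jak1, Jak2, Tyk2 and Stat3. Genes like Il11 were the 6 most correlated and the 3 most opposed. The members and lists were chosen with earlier results of these data known. Alternatives were RLE factors, no low-count filter, a replicate block, DESeq2 1.42.0, only the 6 libraries compared, and each replicate left out; groups of 2 then shared the pooled spread. The steps were tested on simulated counts.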

Additional observations from a re-analysis of the deposited data

Results flagged for a closer look

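The differences between riociguat times are a test of whether the response changed with exposure, and 14 of them passed across the members (edgeR, adjusted over all genes). From 6 h to 12 h the log2 differences were 0.25 for Lif, 0.33 for Lifr, 0.16 for Il6st and 0.31 for Socs3. From 12 h to 24 h they were 0.30 for Lifr, 0.45 for Osmr, 0.27 for Il6st and 0.43 for Socs3. From 6 h to 24 h they were 0.29 for Lif, -0.28 for Il6ra, 0.63 for Lifr, 0.63 for Osmr, 0.43 for Il6st and 0.74 for Socs3. Il11, Il6, Clcf1 and Il11ra1 gave none. Over all tested genes, 2.57% rose and 3.52% fell from 6 h to 12 h, and 1.37% and 1.71% from 12 h to 24 h. From 6 h to 24 h the shares were 7.16% and 8.13%. The 3 comparisons share libraries, so the 14 are not independent of each other. Exposure time and the stage of culture at addition cannot be told apart in these comparisons.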

How the results depend on the processing

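Of 627 combinations of a member's difference and an alternative, Il11 against DMSO left out, 578 kept direction and side of the threshold, 26 lost a call, 5 gained one and 18 changed sign. No called difference changed sign. With 1 library left out, uncalled differences lay on both sides of 0: -0.049 to 0.018 for Lif and -0.046 to 0.056 for Il11ra1 at 24 h minus DMSO, -0.035 to 0.096 for Il6ra at 12 h minus 6 h, -0.086 to 0.12 for Il6 at 24 h minus 6 h, and, at 24 h minus 12 h, -0.16 to 0.014 for Il11, -0.024 to 0.032 for Clcf1 and -0.10 to 0.00060 for Il11ra1. At 24 h minus DMSO Il11ra1 was also on the other side of 0 with RLE factors (0.00090), without the filter (0.0012) and in DESeq2 (0.00081), against -0.01. The cause was not tested.

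Leaving out 1 library gave 2 to 4 called members at 6 h, 1 to 2 at 12 h and 6 at 24 h against DMSO, 1 to 4 for 12 h minus 6 h, 3 to 4 for 24 h minus 12 h and 5 to 6 for 24 h minus 6 h. Over all genes it gave 955 to 1852, 510 to 1262 and 1395 to 2566 calls against DMSO, and 596 to 836, 318 to 432 and 1772 to 2117 between times, in the same order. The count of all genes moved by over 1.5 times at 6 h without riociguat 6 h replicate 2 (1010), DMSO replicate 2 (955) or DMSO replicate 3 (992), and at 12 h without riociguat 12 h replicate 2 (510) or DMSO replicates 2 (564) or 3 (567). It did so at 24 h without DMSO replicate 2 (1395), for 12 h minus 6 h without riociguat 12 h replicate 2 (596) or riociguat 6 h replicate 3 (600), and for 24 h minus 12 h without riociguat 12 h replicates 1 (318) or 2 (319). Without the low-count filter 24 h minus 12 h gave 838 called genes in place of 494. With only the 6 libraries compared, members called at 12 h were 1 in place of 2 (Socs3, adjusted p = 0.0519), and Lifr at 6 h (adjusted p = 0.066) and Il6ra for 24 h minus 6 h (adjusted p = 0.0572) no longer passed.

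Groups share replicate numbers, but same-numbered libraries did not deviate together: their correlations lay between -0.129 and 0.0718, and 0 of 18 exceeded 0.1. With a replicate block, members called at 12 h were 1 in place of 2, since Socs3 had an adjusted p of 0.0676. The block changed no other member's call, and all called genes at 6, 12 and 24 h against DMSO were 1348, 793 and 1944 in place of 1559, 907 and 2141.

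Of 451 combinations of an alternative and a called difference of the other pathway genes named, a set put together after the data were seen, 404 kept the call, 47 lost it and 0 changed sign.

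The lowest depth, 12953096 counts in riociguat 6 h replicate 1, limits Il6 most, with 39 counts there.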

Other observations

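Neighbours of Il11 within 100000 bases on chromosome 7 were read after the members' values were seen. Of these, Rpl28, a ribosomal protein gene 10015 bases away, rose at 24 h by 0.22 ± 0.05 on the log2 scale (SE; edgeR adjusted p = 0.0105). Without DMSO replicate 2 it no longer passed (edgeR adjusted p = 0.0513). No other tested neighbour passed against DMSO at any time by edgeR. Over all tested genes, 5.94% were higher at 24 h. Tmem190, 78 bases from Il11, and Fam71e2, 1071 bases from it, had too few counts to be tested. Tmem238, 1698 bases away, measured 10.8 ± 1.85 CPM in DMSO and 7.35 ± 1.54, 11.6 ± 1.32 and 9.21 ± 2.86 CPM at 6, 12 and 24 h (SD, n = 3), which did not pass. Kmt5c, which encodes a histone methyltransferase 24859 bases away, measured 7.27 ± 0.246 CPM in DMSO and 9.91 ± 1.52 CPM at 6 h and did not pass either (edgeR adjusted p = 0.0770).

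The receptor sheddase genes, whose products release Il6ra from the cell surface, were named after their values were seen. Adam10 went from 127.9 ± 8.04 CPM in DMSO to 154.7 ± 5.98 CPM at 6 h (SD, n = 3) and rose by 0.28 on the log2 scale (edgeR adjusted p = 0.00357). At 12 h and 24 h Adam10 differed from DMSO by 0.15 and 0.10 and did not pass (edgeR adjusted p = 0.156 and 0.271). Adam17 went from 86.3 ± 1.82 CPM in DMSO to 98.5 ± 4.86 CPM at 24 h (SD, n = 3) and rose by 0.19 (edgeR adjusted p = 0.0157), a call lost without riociguat 24 h replicate 1 (edgeR adjusted p = 0.0631). At 6 h and 12 h Adam17 differed by -0.01 and 0.06 and did not pass (edgeR adjusted p = 0.907 and 0.586).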
